A study of Mus musculus with 5 samples.

Results

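The strong point-like Foxa1 sites were short stretches of the autosomes chosen by a rule on pooled reads. The rule asked for many distinct reads of the Foxa1 libraries and a set distance between the read starts of both strands. At 109 of the sites the reads beside the site were dense as well. In such places a library left out of the choice fell short of that distance, as given below. Distinct reads, counted once per library, strand and 5′ end, were pooled over 5 libraries after each 5′ end had been shifted inward by 50 bp. A fixed 200 bp bin was taken when it held 15 to 60 reads from at least 4 libraries and when the median 5′ end of the minus strand lay 40 to 150 bp downstream of that of the plus strand. Of 12026275 bins on chromosomes 1 to 19, 1793 held 15 to 60 reads, 1706 of these drew on at least 4 libraries and 1133 also met the offset. Bins that touched were merged, which left 1093 sites, of which 1055 were 1 bin wide, 36 were 2 bins wide and 2 were 3 bins wide. Together they covered 226600 bp, or 0.00942% of the autosomes.

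Foxa1 is a winged-helix transcription factor that binds DNA on the nucleosome and opens chromatin for other factors, and in the liver it takes part in the control of metabolic genes. When a protein sits on a short stretch of DNA, the fragments pulled down with it are read from their ends, so reads of the plus strand start upstream of the protein and reads of the minus strand start downstream of it. The distance between both groups of read starts is called the strand offset here, and it grows with the length of the fragments.

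The libraries came from livers of wild-type CD1 outbred male mice, 2 to 3 months old, whose tissue was frozen on dissection and given no drug. Chromatin from 100 mg of liver was precipitated with an antiserum to Foxa1, fragments of about 200 bp were cut out of a gel, and the DNA was amplified over 18 cycles. All 5 libraries form 1 group, and no input or other control library was used here, so each library served as its own background through the reads beside a site. Replicates 3 and 4 carry the same animal name in the headers of their files, and tests across the replicates measure only the spread between these 5 libraries. The libraries held 3123543, 4259483, 4433367, 4742472 and 1473182 distinct reads on chromosomes 1 to 19, X and Y, and on the autosomes each distinct read was present in 1.18, 1.16, 1.07, 1.73 and 4.74 copies. Replicate 5 therefore held the fewest distinct reads and the most copies.

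Most sites lay close to the lower limit of the rule. Reads and offset, which chose the sites, are given only as a description. The fullest bin of a site held 15 to 19 reads at 648 sites, 20 to 29 at 328 and 30 to 60 at 117, against an autosomal mean of 1.46 reads per bin. At the lower edge, 193 bins with 15 reads passed the other criteria and 219 bins with 14 reads would have. At the upper edge the numbers were 2 bins with 60 reads and 4 with 61. The strand offset ranged from 40 to 148 bp with a median of 80 bp, and the middle 50% of the sites lay between 65 and 94.5 bp. There were 27 bins with an offset of 40 to under 42 bp and 16 with 38 to under 40 bp, so the lower limit cut through a well-filled part of the distribution, whereas just inside and just outside the upper limit there was 1 bin each.

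**Figure D1:**
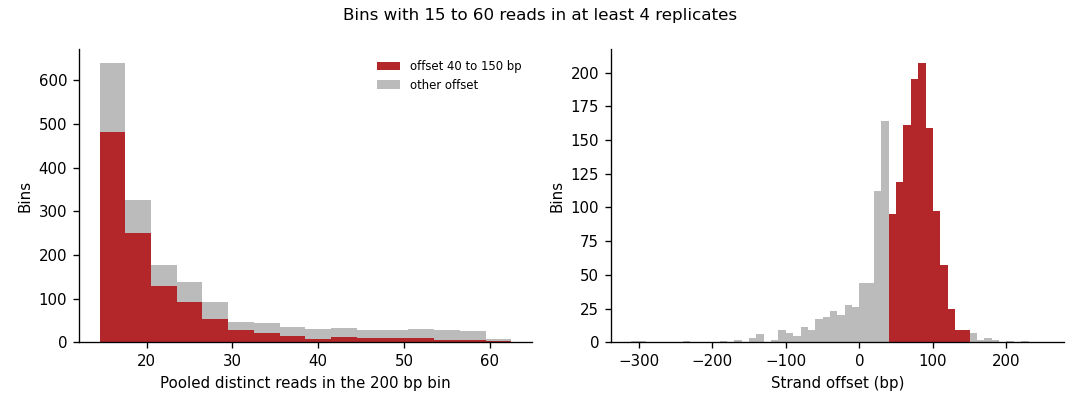
Number of 200 bp bins by pooled distinct reads (left) and by strand offset in bp (right), for the 1706 bins with 15 to 60 reads in at least 4 replicates. The 1133 bins with an offset of 40 to 150 bp are red, and the others are grey. The offsets form a mound around 80 bp and a narrower one from 20 to 40 bp.

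The plot of bins by offset shows that the bins left out of the set were not spread evenly. Of the 573 bins that met the read criteria and not the offset, 555 had an offset under 40 bp, 191 of them under 0, and 16 had one over 150 bp. In 2 bins a strand had no read. Merged, these bins gave 437 regions, which serve as the comparison set and are called regions without the offset.

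The sites fell into an ordinary and a read-dense neighbourhood. The flanks of a site were taken as the 5 kb from 1 to 6 kb away on each side, where the autosomal mean was 72.8 pooled reads. At 984 sites the flanks held 7 to 216 reads with a median of 87, and at 109 sites they held 220 to 3285 reads with a median of 638, which is at least 3 times the mean. This split was made after the values were seen. With a limit of 2 times the mean 130 sites would have counted as read-dense, and with 5 times the mean 79. The flanks were not part of the rule.

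The 109 read-dense sites were gathered in a few places. The largest group, with 40 sites, filled chr11:3003601-3099400 in mm8, a stretch of 95.8 kb at the start of the assembled chromosome. Another 16 sites lay in chr7:37884801-37909800 and 14 in chr1:90048801-90127400. Further groups of 6 sites each lay in chr2:27318201-27324600 and chr4:3008001-3013600, and 2 groups of 5 lay on chromosome 13. In all, 51 of the 109 fell in the first megabase of a chromosome, counted from its first read, as did 15 of the 984 others.

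The density in these sites was closer to that beside them than at the other sites. The pooled density in the site was 0.36 to 5.71 times that of the flanks with a median of 1.74, and 60 of the 109 sites lay under 2. At the 984 sites in an ordinary neighbourhood the fold ran from 3.47 to 171 with a median of 10.8, and 977 of them exceeded 5. Since the split was made on the flanks, this contrast is a description. The offset was shorter at the read-dense sites, with a median of 62 bp and a middle 50% from 46 to 80.5 bp, against a median of 81 bp and a middle 50% from 67 to 95 bp at the others.

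The highest counts of the set came from the read-dense stretch on chromosome 11. Of the 10 sites with the most reads in a bin, 9 lay in chr11:3003601-3099400, with 55 to 60 reads in the fullest bin and folds over their flanks of 0.65 to 1.81. The rule dropped bins with more than 60 reads, so this ranking is cut off at that limit. The site at chr11:3059001-3059200 held 8, 14, 16, 17 and 5 reads in replicates 1 to 5, while its flanks held 3112 reads. All 5 replicates contributed, and the density in the site was 0.96 times that beside it.

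The tenth, at chr6:3151401-3151600, lay in an ordinary neighbourhood and held 3, 14, 16, 16 and 5 reads in replicates 1 to 5. Its flanks held 49 reads, a fold of 55.1, and its offset of 40.5 bp was near the lower limit. Replicate 3, which was low at most sites outside the read-dense stretches, was among the highest there.

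Among the 10 sites with the most reads in an ordinary neighbourhood, several had a different make-up. The site at chr5:103531601-103531800 held 1, 13, 2, 18 and 19 reads, with 70 in its flanks, a fold of 37.9 and an offset of 83.5 bp. That at chr12:8116001-8116200 held 6, 4, 1, 25 and 15 reads, a fold of 30. That at chr1:60508601-60508800 held 7, 4, 1, 22 and 12 reads, a fold of 25. In these sites replicates 4 and 5 held the most reads and replicate 3 held 1 or 2.

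Others of the 10 had the reverse order. At chr12:48710001-48710200, whose 53 reads tied with the site on chromosome 5, the replicates held 13, 17, 13, 7 and 3 reads, a fold of 51.0 with an offset of 70 bp. At chr11:53983801-53984200, which was 2 bins wide, they held 8, 24, 29, 21 and 4 reads, a fold of 50 with an offset of 61 bp. Here replicates 2 and 3 were at or near the top and replicate 5 was the lowest.

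Folds above 50 over the flanks occurred at 4 sites, and at 2 of them the flanks were nearly empty. The highest, at chr16:3266801-3267000, held 24 reads (6, 1, 8, 7 and 2 in replicates 1 to 5) beside 7 reads in its flanks, a fold of 171. The site at chr3:74674601-74674800 held 19 reads (5, 2, 0, 10 and 2) beside 14, a fold of 67.9. In both the flanks were far under the autosomal mean, at 0.0961 and 0.192 times it, so these folds rest on few flanking reads.

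Among the 984 ordinary sites the lowest replicate count was largest at a site of 3 bins at chr1:87423001-87423600, with 18, 20, 26, 19 and 12 reads. Next, both with a lowest count of 6, came a site of 2 bins at chr12:77881001-77881400, with 6, 16, 6, 15 and 8 reads, and a site of 1 bin at chr3:8228201-8228400, with 6, 8, 11, 8 and 6. The first had a fold of 7.84, flanks at 2.77 times the mean and an offset of 42 bp. The site on chromosome 12 had a fold of 18.8 and an offset of 65.5 bp, and that on chromosome 3 a fold of 14.2 and an offset of 55.5 bp.

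Replicates 4 and 5 supplied more of the reads at the sites than their depth would give, and replicate 3 fewer. At the 984 sites in an ordinary neighbourhood replicates 1 to 5 supplied 12.1%, 20.8%, 8.07%, 34.4% and 24.6% of the pooled reads. Of all autosomal distinct reads they supplied 17.3%, 23.7%, 24.6%, 26.3% and 8.16%. At the read-dense sites the shares were 15.05%, 26.9%, 26.5%, 25.2% and 6.42%, and at the 210 regions without the offset in an ordinary neighbourhood they were 15.6%, 24.7%, 24.4%, 24.0% and 11.3%, both closer to the shares of all reads. Because these pooled reads chose the sites, the shares are a description, and the comparison with each replicate left out follows further on.

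**Figure D2:**
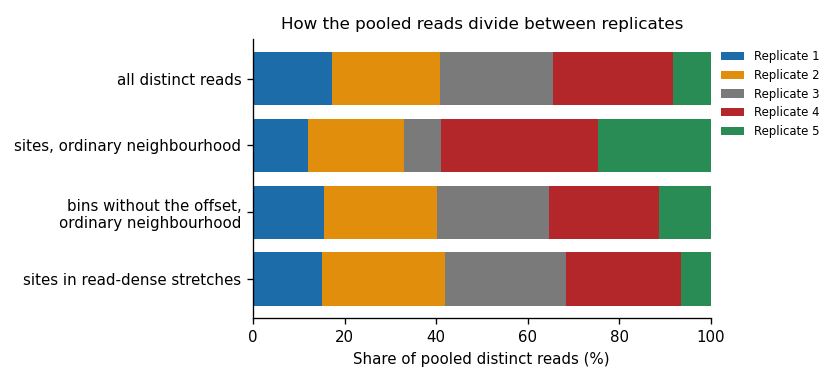
Share of pooled distinct reads in percent that each replicate supplied, as stacked bars, for all autosomal reads, for the 984 sites in an ordinary neighbourhood, for the 210 regions without the offset in an ordinary neighbourhood and for the 109 sites in read-dense stretches. Replicate 3 (grey) shrinks from 24.6% of all reads to 8.07% at the ordinary sites, and replicate 5 (green) grows from 8.16% to 24.6%.

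The median count per site followed the order of the shares, while single sites varied. The median count at the 984 sites was 2, 4, 1, 7 and 5 reads in replicates 1 to 5, and the highest count was 18, 24, 29, 25 and 19. All 5 replicates had a read at 586 sites. Replicate 3 had none at 264, replicate 1 none at 81, replicate 5 none at 30, replicate 2 none at 22 and replicate 4 none at 1. Replicate 4 alone held the most reads at 482 sites, replicate 5 alone at 214 and replicate 3 alone at 28. At the 210 regions without the offset in an ordinary neighbourhood these numbers were 55, 16 and 53.

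Replicate 3 was far ahead at a few sites. At 27 of the 984 sites replicate 3 held more reads than replicates 4 and 5 together, 252 reads against 117 and 43, and their median offset was 57 bp with a median of 20 reads in the fullest bin. The 214 sites led by replicate 5 had a median offset of 82.25 bp, and the 264 without a read of replicate 3 had one of 80.25 bp. These groups were formed from the reads after they were seen and carry no test. Among the 109 read-dense sites, replicate 3 exceeded replicates 4 and 5 together at 37. Among the 210 regions without the offset in an ordinary neighbourhood it did so at 62, a larger share than at the 984 sites.

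To ask whether a library that took no part in the choice also showed the sites, each replicate was left out in turn, the rule was applied to the other 4 with a read required in all 4, and the reads of the left-out replicate were counted in the sites so chosen. The rule then gave 598, 420, 803, 308 and 429 sites with replicates 1 to 5 left out, of which 521, 347, 714, 225 and 332 lay outside the read-dense stretches. The sets were smaller because fewer reads were pooled and because all the remaining replicates had to contribute. They also share libraries, so the 5 values are not independent of each other. With replicate 3 or 4 left out, the other library of the same animal name stayed in the choice of sites.

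Every left-out replicate was denser in the sites than beside them. Over all sites its density was 3.29, 2.86, 1.83, 3.35 and 8.68 times that of the flanks in replicates 1 to 5, with a mean log2 fold of 1.79 ± 0.82 (SD, n = 5 replicates). This fold divides the summed reads of all sites by those of all flanks, so read-dense sites weigh heavily. With replicate 2 left out, the flanks of 73 read-dense sites among the 420 held 38529 of the 45746 flank reads. The over-all fold is therefore not that of a typical site. Within each replicate reads in sites were set against those in flanks by an exact binomial test (one-sided), which gave Benjamini-Hochberg adjusted p of at most 1.52e-149, a value that covers counting error alone. Across the replicates the log2 fold was above 0 in 5 of 5, with p = 0.0625 in a two-sided exact sign-flip permutation test, the smallest that 5 replicates can give (adjusted p = 0.0938 over 6 such tests, exact). The design could not reach 0.05. The regions without the offset, over all, were also denser than their flanks in every left-out replicate, at 1.98, 2.04, 2.09, 1.75 and 1.72 times. A test of the log2 fold against 0 therefore does not set the sites apart from them.

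The split by neighbourhood used the flanks, which also enter this fold, so the values on either side of it are a description. Outside the read-dense stretches the fold was 8.47 (95% interval 7.97 to 9.01) in replicate 1, 10.8 (10.2 to 11.4) in replicate 2, 3.19 (2.99 to 3.41) in replicate 3, 16.4 (15.6 to 17.3) in replicate 4 and 26.8 (25.2 to 28.5) in replicate 5. The mean log2 fold was 3.39 ± 1.15 (SD, n = 5 replicates). Each replicate was counted in its own set of sites, and the intervals cover counting error within a library, so they are no test of a difference between replicates. In the read-dense stretches the left-out fold was 1.25, 1.27, 1.25, 1.33 and 1.32.

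**Figure D3:**
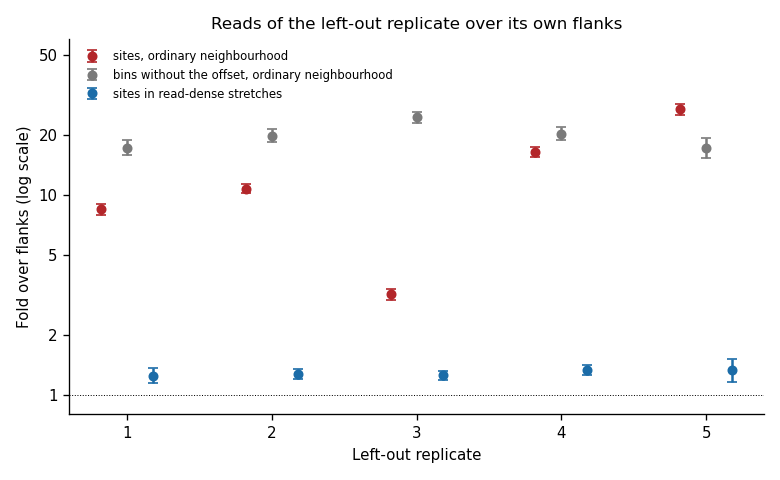
Density of distinct reads of each left-out replicate in regions chosen from the other 4, as a fold over its own flanks on a log scale, with 95% binomial intervals. For sites in an ordinary neighbourhood (red) the fold runs from 3.19 in replicate 3 to 26.8 in replicate 5, for sites in read-dense stretches (blue) it stays between 1.25 and 1.33, and for regions without the offset in an ordinary neighbourhood (grey) it lies between 17.2 and 24.4.

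Most single sites held more reads of the left-out replicate than their flanks predicted. Outside the read-dense stretches this was so for 436 of 521 sites in replicate 1 (83.7%), 324 of 347 in replicate 2 (93.4%), 445 of 714 in replicate 3 (62.3%), 223 of 225 in replicate 4 (99.1%) and 301 of 332 in replicate 5 (90.7%). Among all autosomal bins with a read of the other 4 replicates, the same was so for 24.0%, 30.8%, 32.3%, 30.5% and 10.2%. These bins were not matched for reads. At the regions without the offset in an ordinary neighbourhood, which met the same read rule, the shares were 92.5%, 95.6%, 94.3%, 99.0% and 83.8%. They were higher than at the sites in replicates 1 to 3 and lower in replicates 4 and 5. Over all sites chosen the shares were 80.4%, 88.3%, 63.3%, 89.9% and 81.1%. At these depths 1 read was enough to lie above the flanks at most sites, so these shares record little more than whether a replicate had a read there.

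Sites with more reads in the other 4 replicates also held more of the left-out one, relative to the flanks. In replicate 1 the fold outside the read-dense stretches was 6.55 where the other 4 held 15 to 19 reads, 9.61 at 20 to 29 and 19.4 at 30 to 60. In replicate 3 it was 2.46, 3.17 and 7.96, and in replicate 5 it was 22.8, 31.7 and 43.7. Replicates 2 and 4 rose through the classes as well, from 8.74 to 17.0 and from 14.01 to 32.9, and the highest class held 12 to 60 sites per replicate.

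In replicates 1 to 4 the fold was lower at the longest offsets of the other 4 replicates than at the shortest. In replicate 3 the fold was highest, 4.89, at sites with an offset of 40 to under 60 bp and 2.95 at those of 100 to 150 bp. In replicate 5 the order was the other way, with 21.3 at the short offsets and 27.4 at the long ones. In replicate 1 the fold was 9.26 and 6.97 in the same classes, in replicate 2 it was 12.4 and 9.11, and in replicate 4 it was 16.0 and 14.3. The classes between did not always follow, and in replicate 4 the fold was highest, 18.4, at 80 to under 100 bp.

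The strand offset was also present in the left-out replicates. Over all sites the median of the minus strand lay 60.2, 78.5, 46.0, 57.8 and 64.9 bp downstream of that of the plus strand in replicates 1 to 5, a mean of 61.5 ± 11.8 bp (SD, n = 5 replicates). It was above 0 in 5 of 5 (p = 0.0625, adjusted 0.0938, two-sided exact sign-flip permutation test). The regions without the offset, over all, were also above 0 in every left-out replicate, at 24.75 to 29.5 bp. A test against 0 therefore does not set the sites apart from them. Outside the read-dense stretches it was 72.9, 93.1, 61.5, 65.8 and 68.1 bp, a mean of 72.3 ± 12.4 bp. In the read-dense stretches it was 22 to 36.8 bp, under the 40 bp of the rule. At the regions without the offset in an ordinary neighbourhood it was 27.2 to 32.8 bp. Over all sites and outside the read-dense stretches replicate 2 had the longest offset and replicate 3 the shortest.

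**Figure D4:**
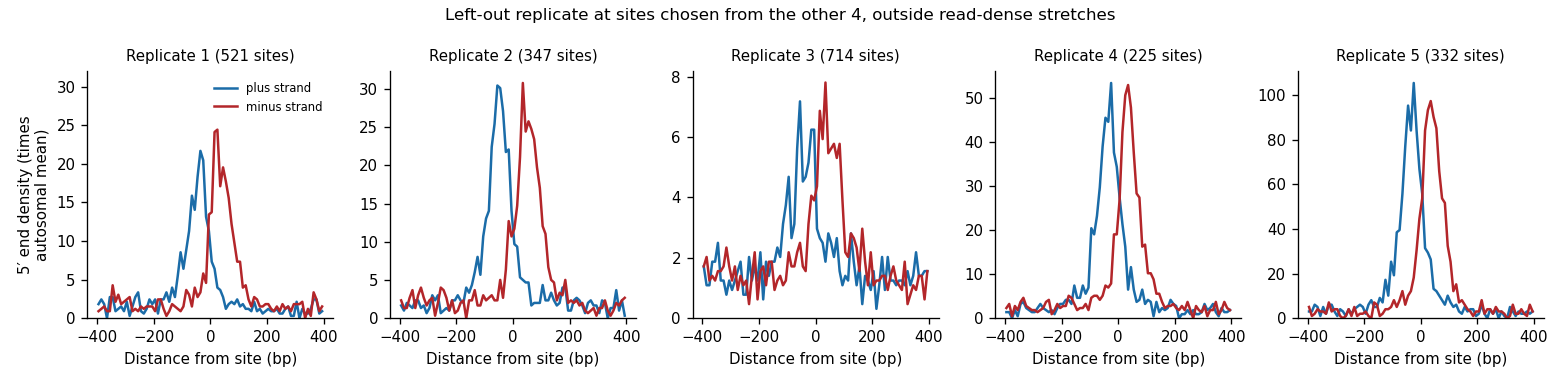
Density of 5′ ends of the left-out replicate by distance in bp from the centre of the sites, per strand, as multiples of the autosomal mean, outside the read-dense stretches. Each panel is 1 replicate with its own vertical scale. In each the plus strand (blue) peaks left of the centre and the minus strand (red) right of it, from 7.18 times the mean in replicate 3 to 105 times in replicate 5.

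In the profiles the strands parted at the centre in every replicate. In 10 bp steps, the plus strand of the left-out replicate was highest at 25 to 55 bp before the centre and the minus strand at 25 to 35 bp after it. The peak reached 21.7 times the autosomal mean on the plus strand and 24.4 times on the minus strand in replicate 1, 7.18 and 7.80 times in replicate 3, and 105 and 97.3 times in replicate 5. The peaks of replicate 3 rested on 46 and 50 reads over 714 sites, so its profile is the least certain of the 5.

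The density by distance from the centre describes the sites, since the rule required reads in the bin and looked at 5′ ends up to 150 bp past it. Within 50 bp of the centre of the 984 ordinary sites the density was 16.7, 21.1, 6.85, 32.5 and 75.4 times the autosomal mean in replicates 1 to 5. At the regions without the offset in an ordinary neighbourhood it was 37.6, 39.0, 36.6, 33.5 and 50.01 times. At 100 to 200 bp from the sites it was 1.75, 2.07, 1.77, 2.30 and 4.23 times the mean, and at 200 to 500 bp it was 1.44, 1.54, 1.45, 1.57 and 2.55 times. Replicates 1 to 4 thus came close together beyond 100 bp, while replicate 5 kept above them.

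**Figure D5:**
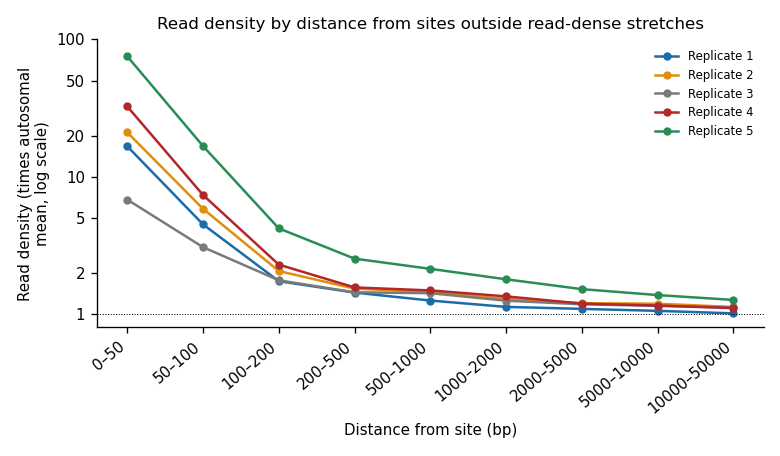
Density of distinct reads by distance from the 984 sites in an ordinary neighbourhood, as multiples of the autosomal mean on a log scale, with 1 line per replicate and distance classes in bp on the horizontal axis. All lines fall steeply to 200 bp and then slowly, and replicate 5 (green) lies highest throughout.

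The density further out was above the autosomal mean as well. From 1 to 5 kb it was 2.39, 2.95, 2.84, 2.57 and 2.51 times the mean over all 1093 sites. The mean log2 ratio was 1.40 ± 0.13 (SD, n = 5 replicates). Where sites lay close together this distance takes in other sites, chosen for their reads, so the value is a description. The sign-flip test run on it is not used here. At the 109 read-dense sites alone the density at this distance was 10.8 to 18.4 times the mean in the 5 replicates. Outside the read-dense stretches the density from 1 to 5 kb was 1.11, 1.23, 1.20, 1.24 and 1.60 times the autosomal mean in replicates 1 to 5, a mean log2 ratio of 0.34 ± 0.20. The split used reads of the same distances, so it bears on this value, which is given with no test. From 10 to 50 kb it was 1.02, 1.13, 1.12, 1.11 and 1.28 times the mean. At the regions without the offset in an ordinary neighbourhood the density from 1 to 5 kb was 1.18, 1.26, 1.26, 1.22 and 1.28 times the mean. That was above the sites in replicates 1 to 3 and below them in replicates 4 and 5, so a raised density there was not particular to the sites. From 10 to 50 kb these regions were at 0.955 to 0.995 times the mean.

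The sites held few of all reads. They took 0.0998%, 0.126%, 0.0602%, 0.173% and 0.369% of the autosomal distinct reads in replicates 1 to 5, a mean of 0.166 ± 0.121% (SD, n = 5 replicates). Without the read-dense sites the shares were 0.0821%, 0.103%, 0.0383%, 0.153% and 0.353%. The read-dense sites alone took 0.0160% to 0.0231% in every replicate, a narrow range beside that of the ordinary sites.

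Copies of reads at the sites were close in number to those elsewhere. At the 1093 sites each distinct read had 1.13, 1.16, 1.07, 1.79 and 5.00 copies in replicates 1 to 5, against 1.18, 1.16, 1.07, 1.73 and 4.74 on the autosomes. The mean log2 ratio was 0.010 ± 0.050 (SD, n = 5 replicates), above 0 in 2 of 5 (p = 0.75, two-sided exact sign-flip permutation test). Leaving out replicate 5 turned the sign, to -0.0061. With the sites chosen without the replicate in question it was 0.019 ± 0.035.

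The regions without the offset had more copies. In an ordinary neighbourhood they held 2.15, 1.89, 1.77, 2.39 and 5.48 copies per distinct read, each above the autosomal value of its replicate. Sites less such regions gave a mean log2 ratio of -0.33 ± 0.22 over all, and -0.58 ± 0.31 outside the read-dense stretches (SD, n = 5 replicates). Both were below 0 in 5 of 5, and the former gave p = 0.0625 (adjusted 0.0938, two-sided exact sign-flip permutation test).

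The left-out fold of the sites was set against that of these regions with the same test, in which 5 replicates cannot reach 0.05. Over all, the log2 fold of the sites less that of the regions was 0.73, 0.49, -0.20, 0.94 and 2.34 in replicates 1 to 5, a mean of 0.86 ± 0.93 (p = 0.125, adjusted 0.15, two-sided exact sign-flip permutation test). Without replicate 5 the mean was 0.49. Outside the read-dense stretches the sign turned, with -1.03, -0.88, -2.94, -0.30 and 0.64, a mean of -0.90 ± 1.31, a description since the split used the flanks. Only in replicate 5 were the sites denser than the regions under both, and in replicate 3 the regions were denser under both. Within the read-dense stretches, too, the regions were denser in replicates 1 to 3, at 1.33, 1.39 and 1.32 times their flanks, and the sites in replicates 4 and 5, where the regions were at 1.25 and 1.05 times. In replicates 1 and 2 the regions were thus denser on both sides of the split, while over all the sites were. Of the sites, 77 of 598 and 73 of 420 lay in read-dense stretches, against 168 of 302 and 156 of 270 regions. The over-all difference therefore mixes both neighbourhoods in unlike shares. With the autosomal mean in place of the flanks the sign over all also turned, to a mean of -0.73 ± 1.12, above 0 in 1 of 5 replicates.

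A test over the whole of the autosomes used the same reads that chose the sites, so the number of sites that passed it is only a description. In a one-sided Poisson test of pooled counts against the larger of the autosomal mean and the local mean, 6414 of 8256236 bins with a read passed a 5% false discovery rate, or 0.0777% (Benjamini-Hochberg). Of the 1093 sites 989 overlapped such a bin, among them 981 of the 984 in an ordinary neighbourhood and 8 of the 109 in read-dense stretches. Of the 437 regions without the offset 238 did. Against the autosomal mean alone all 1093 sites passed. The local mean was taken over much the same distances as the flanks, so the contrast between neighbourhoods follows largely from the split.

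Some sites lay at genes tied to diabetes. The study lists 33 distinct intervals at such genes that it reports as bound by both Foxa1 and Foxa2. Of these intervals, 11 (33.3%) overlapped 11 of the 1093 sites (1.01%). The share is of intervals the study had called bound, and it says nothing of diabetes genes at large. The list was drawn up with reads of these libraries, so the overlap is not independent evidence, and the locations of the genes are those of the list. With 1 replicate left out, 5, 4, 7, 1 and 2 of the intervals overlapped a site, for replicates 1 to 5 in turn. All 11 sites were 1 bin wide and in an ordinary neighbourhood.

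The site listed at Onecut1, which encodes a liver-enriched transcription factor of the hepatocyte nuclear factor 6 type, lay at chr9:74587801-74588000 and held 4, 2, 2, 11 and 7 reads in replicates 1 to 5. Its fold over the flanks was 13.98 and its offset 83 bp. The site listed at Pdx1, which encodes a homeodomain factor of the pancreas and its beta cells, lay at chr5:147610001-147610200 and held 4, 8, 1, 9 and 1 reads, a fold of 17.2 with an offset of 97 bp. Replicate 4 was the highest at both, and replicate 5 was high at the former and at a single read at the latter.

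At Fto, which encodes an RNA demethylase known for its link with body mass, 3 intervals overlapped sites. The site at chr8:94269601-94269800 held 5, 3, 0, 10 and 2 reads, with a fold of 11.5. That at chr8:94293201-94293400 held 4, 1, 3, 4 and 4 reads, with a fold of 7.08. That at chr8:94385401-94385600 held 0, 3, 2, 3 and 7 reads, with a fold of 8.72. Replicate 4 held the most reads at the first site, replicate 5 at the last, and replicates 1, 4 and 5 were level at the other.

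Among the others, Arap1 and Notch2 had 1 site each. The site listed at Arap1, which encodes a regulator of small GTPases, lay at chr7:101197201-101197400 and held 3, 6, 0, 9 and 2 reads, with a fold of 12.3. That at Notch2, a receptor for signals between neighbouring cells, lay at chr3:98130401-98130600 and held 6, 2, 1, 5 and 3 reads, with a fold of 8.50.

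The sites were spread over all 19 autosomes. At the 984 ordinary sites the number per megabase ran from 0.310 on chromosome 7, with 44 sites, to 0.496 on chromosome 8, with 64. The median distance from such a site to the nearest other site was 434 kb, and 119 of the 984 had another within 25 kb. The closest pair was 200 bp apart.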

How the data were processed

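The authors deposited, for each of 5 replicates, the positions of aligned reads, with start, end and strand and no count or score. Per the study's methods, 36 nt reads were aligned to mm8 (NCBI Build 36) with ELAND (version not given in the sources used here) and only reads with 1 best position were kept. Copies stayed in the files, and the replicates were not pooled.

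Distinct reads, bins, sites, flanks and folds were computed from these positions with NumPy 2.4.6, pandas 2.3.3 and SciPy 1.17.1 under Python 3.11.15, and drawn with Matplotlib 3.10.9. The depth of the libraries is given with the samples above. With 1.46 pooled reads per bin on average, single-site counts per replicate are low. Intervals are 95% exact binomial (Clopper-Pearson) intervals and cover counting error only. The local mean of the Poisson test was taken 500 to 5000 bp from the bin. Replicates were compared with exact sign-flip permutation tests, with Benjamini-Hochberg adjustment over 6 results. Among the 6 is the density from 1 to 5 kb, used above only as a description, and counting it lowers the other adjusted values.

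The rule, the lists and the tests were chosen with earlier results of these data known. Named were the 10 sites with the most reads in a bin, the 5 with the highest lowest-replicate count, both over all sites and outside the read-dense stretches, and the sites in listed intervals, some of them given only by their range. The read-dense stretches and the sites with folds above 50 were picked with their values in view. Some listed sites are not reported singly here. The rule and the left-out counts were tried on simulated reads with planted sites on an even background. That simulation had no read-dense stretches, no copies of reads and no regions with a short offset, so it does not bear on these. Other settings tried were the shift, read copies, the position of the bins, the limits on reads, replicates and offset, the sex chromosomes, the flanks, the background, and each replicate left out. No genome or annotation of mm8 was used, so sequences and nearest genes were not analysed here.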

Additional observations from a re-analysis of the deposited data

Results flagged for a closer look

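The rule was limited to the autosomes, and the same rule met bins on the sex chromosomes, whose reads entered no comparison. It gave 26 sites on chromosome X, or 0.160 per megabase, and 20 on chromosome Y, or 7.33 per megabase of the 2.73 megabases that reads spanned there, against 0.454 per megabase on the autosomes. The limits on reads were not changed for the unpaired sex chromosomes of male mice, so these rates are not like for like. Of these sites, 13 on X and 13 on Y lay in read-dense stretches as defined for the autosomes. Over all 26 and all 20 sites the median flanks were 2.90 and 4.18 times the autosomal mean. The median offset was 63.5 bp on X and 72.8 bp on Y.

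Replicate 5 stood far from the others in several measures. In each of 57 sets of 5 replicate values, the gap between the highest or lowest replicate and its neighbour was set against the whole range by Dixon's test at 95%, which by chance picks out about 1 set in 20, and many of the sets share reads. All 12 that passed were led by replicate 5. It held 4.74 copies per distinct read on the autosomes, and 5.00 at all sites, 5.00 at those in an ordinary neighbourhood and 4.90 at the read-dense ones. At the regions without the offset it held 5.10 copies over all and 5.48 in an ordinary neighbourhood. Its left-out fold over all sites was 8.68. Around the sites in an ordinary neighbourhood its density was 4.23 times the autosomal mean at 100 to 200 bp and 2.55 at 200 to 500 bp. It was 2.15 at 500 to 1000 bp, 1.53 at 2000 to 5000 bp and 1.60 at 1 to 5 kb. Reads of replicate 5 helped to choose these sites, and the split used reads 1 to 6 kb away. These density sets are therefore a description, and their passing is no evidence that replicate 5 differs. Without replicate 5 the mean log2 left-out fold over all sites was 1.46 in place of 1.79, and that of the sites less the regions without the offset was 0.49 in place of 0.86.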

How the results depend on the processing

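The number of sites followed the limits of the rule. It was 1093 as reported, 17474 with every read counted as deposited, 663 with a read required in all 5 replicates, 1898 from 12 reads, 445 from 20 reads, and 308 to 803 with 1 replicate left out and a read required in the other 4. Leaving out replicate 4 gave the 308 and leaving out replicate 3 the 803. A shift of 100 bp, moved bins, an offset of 60 to 130 bp, the sex chromosomes, the read-dense stretches and the first megabase each changed it by less than 1.5 times. The 11 listed intervals with a site became 1 to 7 with 1 replicate left out, with 1 left without replicate 4. The log2 fold of the sites less the regions without the offset turned from 0.86 to -0.73 against the autosomal mean and to -0.90 without the read-dense stretches, the latter chosen after seeing the data. The log2 copy ratio of the sites to the autosomes ran from -0.0061 to 0.026 with 1 replicate left out, the former without replicate 5. The sites and the regions lay in read-dense stretches in unlike shares, and the cause of these turns was not tested. The log2 left-out fold was 4.05 against the autosomal mean in place of 1.79. With the sites chosen without the replicate, the log2 density from 1 to 5 kb was 2.27 in place of 1.40, and the log2 copy ratio to the regions without the offset was -0.62 in place of -0.33. Of the other values, those with a direction kept it and the counts stayed within 1.5 times, but the sign-flip tests could not pass 0.05 with 5 replicates, or go below 0.125 with 4. No paired analysis was possible because there was 1 group, so no samples pair across groups, and the tests used differences within each replicate. Depth limited what single sites could show, and no control library was used here.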
